A study of Mus musculus with 6 samples.

Results

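The deposited table of M45 tetramer+ CD8+ T cells held 34 genes of RNA splicing, RNA helicases and the connected steps of mRNA processing, chosen as every row whose symbol begins with one of a fixed set of family names (such as Hnrnp, Srsf, Snrp, Ddx, Exosc and Cnot). They are 34 of the 1018 genes with a value in that table (3.34%), which are called the listed genes here. The rule reads symbols only and no measured value, although the families were picked with earlier results of these data known. In the GENCODE M21 annotation of the mouse genome, 230 protein-coding genes match the same names, so 34 of 230 were listed. The rest were not analysed here.

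Bulk RNA-seq had been done on CD8+ T cells of the spleen, sorted with an MHC tetramer for M45, an immunodominant peptide of murine cytomegalovirus (MCMV). The cells came from 3 JHT mice and 3 WT control mice, all on the C57BL/6J background, adult, and 7 days after MCMV infection. JHT mice have no B cells from birth, since the JH segments of their antibody heavy chain locus are deleted, whereas the WT mice carry the intact locus, and the sources give both sexes for the study as a whole. The comparison addresses how antigen-specific CD8+ T cells differ when they arise without B cells. The authors had scaled each expression value for the length of the gene and for the library, so levels of different genes can be set side by side, and libraries are given in the order of replicates 1, 2 and 3.

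Pre-mRNA is spliced by the spliceosome, which is built from small nuclear ribonucleoproteins (snRNPs) that recognise the ends of introns and then rearrange with the help of ATP-driven RNA helicases. SR proteins mostly favour the use of the exons they bind, while heterogeneous nuclear ribonucleoproteins (hnRNPs) coat the nascent transcript and often repress nearby splice sites. The finished transcript is cleaved and polyadenylated, exported, and later degraded through shortening of its tail and the exosome. CD8+ T cells that meet antigen enlarge and increase their RNA synthesis, and they also shift the splicing of many transcripts.

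The table had been selected by its authors on the outcome: the largest p of an equal-variance test recomputed from the values was 0.05 and the smallest fold in either direction was 2.00. All 1018 listed genes therefore differ between the groups by construction, and 983 were higher and 35 lower in JHT libraries. Of 10 marker genes of CD8+ T cells, 1 was listed (Lck), and of 45 markers of other cell types 1 was listed (Bpgm), so the cell type of the libraries could not be checked against its defining markers. Whole reads recovered from the values gave 47672 to 252490 reads per library in the 34 genes, with a median per gene of 2227 to 3352.5 reads in the JHT libraries and 540 to 1189.5 reads in the WT libraries. WT-1 was the lowest WT library for 22 of the 34 genes, and JHT-3 was the highest JHT library for 23 of them. The summed value of all listed genes other than Ccl5 was likewise lowest in WT-1 and highest in JHT-3.

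All 34 RNA-processing genes were higher in M45-specific CD8+ T cells of JHT mice, and all 34 passed limma's test at an adjusted p of 0.05. Of all 1018 listed genes, 96.6% were called higher by the same rule, and 100% were called in either direction, so the count of 34 is close to its background and is fixed in large part by how the table was made. The p-values given here are likewise conditional on that selection. In each of the 34 genes the lowest JHT value lay above the highest WT value, which was also true of 96.6% of the listed genes. Folds are given as the mean of the JHT libraries over the mean of the WT libraries, and they ran between 2.00 for Ddx18 and 5.70 for Cnot10, with a median of 2.91, against a median of 2.93 for all 983 higher listed genes. On the scale of log2(value + 1) the median change was 1.53, against 1.48 for the 983 higher listed genes and 1.47 for all listed genes. Of the 34 genes, 30 changed by more than 1, against 92.2% of the listed genes. Adjusted p in limma ran between 5.32e-07 and 0.0156. The 34 genes lie on 14 chromosomes of GRCm38. Among those followed most closely below, Cpsf3 spans chr12:21285391-21315056 on the plus strand with 22 exons after merging of transcripts, Snrnp40 spans chr4:130360132-130390026 on the plus strand with 12, Hnrnpab spans chr11:51600100-51606847 on the minus strand with 7 and Ddx41 spans chr13:55530410-55536658 on the minus strand with 14. In bulk RNA of sorted cells a different mix of cells and a different amount of a transcript per cell cannot be told apart.

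**Figure D1:**
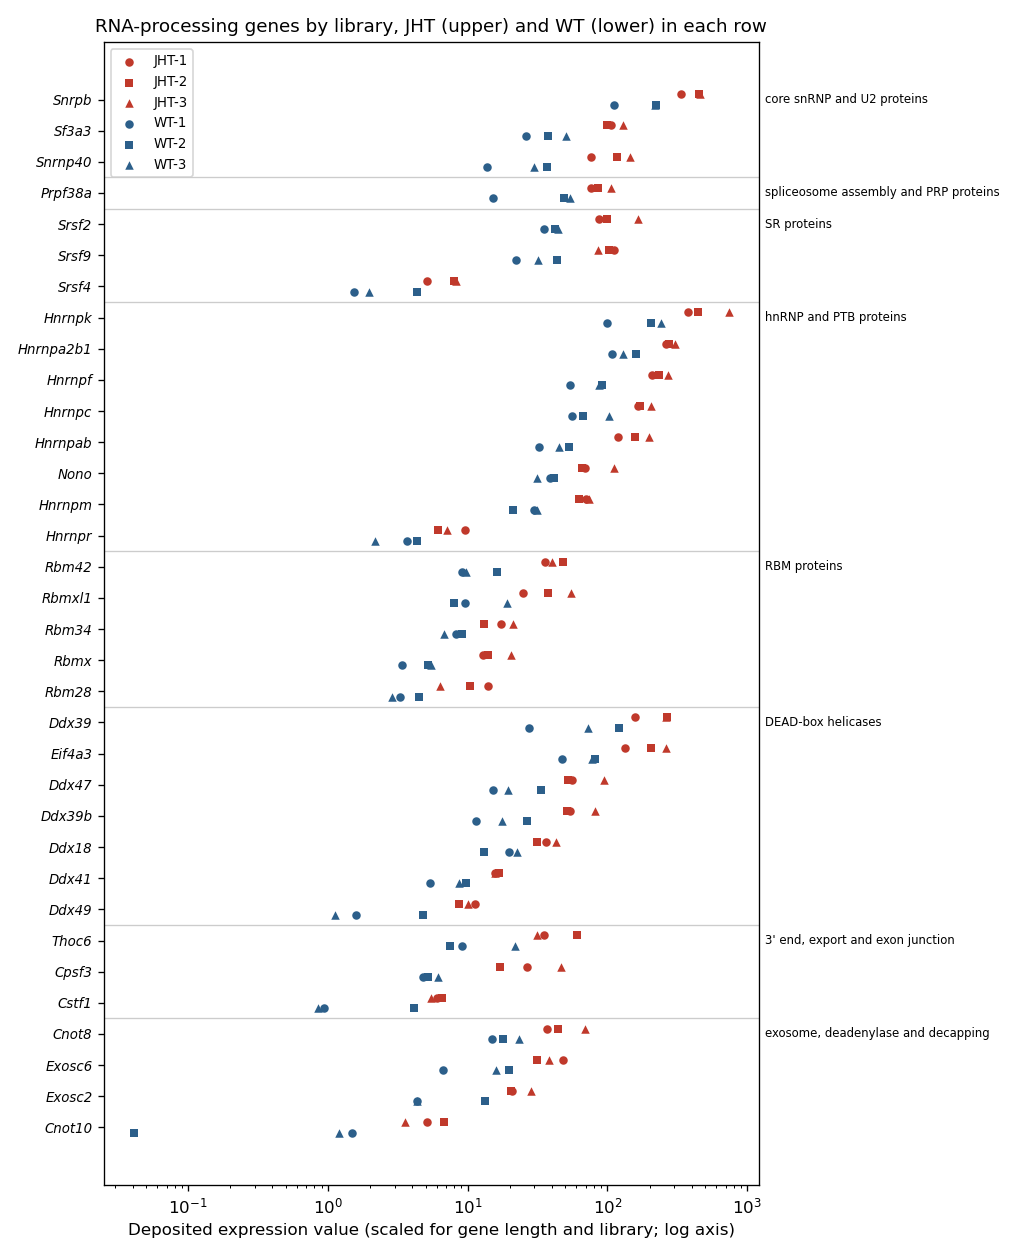
Deposited expression value (horizontal log axis) of each of the 34 genes in every library, grouped by role, with JHT libraries in red at the top of each row and WT libraries in blue at the bottom. The JHT points lie to the right of the WT points in each row, and WT-2 of Cnot10, at 0.0409, is far below every other point.

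Promoter sequence, which the selection of genes did not use, is shown for the gene with the largest log2(value + 1) change (Cpsf3), for the hnRNP gene with the largest such change (Hnrnpab) and for the gene with the highest mean in JHT libraries (Hnrnpk). Each RefSeq promoter below (GRCm38.p6) spans 250 bases before and 50 bases from a RefSeq transcript start, written 5′ to 3′ on the gene's own strand, and capitals mark matches on either strand to the ETS core CCGGAAG, the CCAAT box CCAAT, the GC box GGGCGG or the E-box CACGTG.
Cpsf3, chr12:21286047-21286346, plus strand: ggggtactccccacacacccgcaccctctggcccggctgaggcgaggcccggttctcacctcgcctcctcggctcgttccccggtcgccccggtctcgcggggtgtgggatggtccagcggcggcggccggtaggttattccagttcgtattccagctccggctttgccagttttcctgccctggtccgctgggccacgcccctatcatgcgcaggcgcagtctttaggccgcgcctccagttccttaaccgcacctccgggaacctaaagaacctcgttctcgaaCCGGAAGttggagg
Hnrnpab, chr11:51606832-51607131, minus strand: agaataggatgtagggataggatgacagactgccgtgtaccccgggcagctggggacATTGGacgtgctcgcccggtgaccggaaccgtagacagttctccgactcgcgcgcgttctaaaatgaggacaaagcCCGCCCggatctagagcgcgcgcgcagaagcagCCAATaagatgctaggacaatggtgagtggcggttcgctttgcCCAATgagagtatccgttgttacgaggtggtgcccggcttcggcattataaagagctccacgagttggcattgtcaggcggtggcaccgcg
Hnrnpk, chr13:58402068-58402367, minus strand: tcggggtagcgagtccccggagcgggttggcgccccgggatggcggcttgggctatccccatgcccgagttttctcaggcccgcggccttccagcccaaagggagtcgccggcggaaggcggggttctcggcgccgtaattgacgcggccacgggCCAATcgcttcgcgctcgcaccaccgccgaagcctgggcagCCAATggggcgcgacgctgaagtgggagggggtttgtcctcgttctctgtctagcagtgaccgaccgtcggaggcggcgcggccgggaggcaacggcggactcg
The RefSeq starts used for Cpsf3 and Hnrnpk lie inside the spans that GENCODE gives these genes. The Cpsf3 promoter held a single ETS core downstream of the start, and the Hnrnpk promoter held CCAAT boxes without a GC box. The Hnrnpab promoter held CCAAT boxes and a GC box, and also the TATA box TATAAA, which is not marked by capitals.

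RefSeq promoters were matched to 31 of the 34 genes and gave 43 promoters. Promoters of the same gene were counted separately in every set. Some overlap, as in Srsf4 and Ddx49, so 1 site can count more than once. The ETS core CCGGAAG occurred in 14 of the 43 (32.6%), against 22.9% of 984 promoters of listed genes and 8.86% of 32851 mouse promoters. The 14 promoters belong to 10 genes, Cnot10, Cpsf3, Ddx39b, Ddx47, Ddx49, Hnrnpf, Rbm34, Rbm42, Sf3a3 and Srsf4. The CCAAT box occurred in 21 of the 43 (48.8%), against 42.2% of listed promoters and 37.4% of all promoters. The GC box also occurred in 21 of the 43 (48.8%), below its share of 64.3% in listed promoters and above its share of 35.7% in all promoters. CACGTG was found in 3 of the 43 (6.98%), against 12.2% of listed promoters and 7.15% of all promoters. TATAAA was found in 4 of the 43 (9.30%), against 6.91% of listed promoters and 13.6% of all promoters. Of the other motifs searched, the YY1 motif occurred in 1 of the 43 (2.33%), against 2.44% of listed promoters, and the NRF1 motif and TTTGGCGC (E2F) in none, against 2.03% and 1.32% of listed promoters. GC content had a median of 60.7% in these promoters, 61% in those of listed genes and 52.7% in all, and the part of GC content in these shares was not tested. Matches of 2 motifs overlapped in Cnot10 and Hnrnpf, each time an ETS core and a GC box. These are matches of letters, and binding of a factor was not measured.

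The core snRNP group was represented by 3 of 38 annotated genes. Snrpb encodes SmB, a protein of the Sm ring around which most spliceosomal snRNPs are built, and it was the highest of these genes at 338, 452 and 461 in JHT libraries, against 112, 224 and 219 in WT libraries (2.26-fold). Sf3a3, a subunit of the U2 snRNP complex that helps to recognise the branch point, had 105, 98.6 and 129.5 in JHT libraries, against 26.2, 37.7 and 50.7 in WT libraries (2.91-fold). Snrnp40, a protein of the U5 snRNP, had 75.7, 117 and 144 in JHT libraries, against 13.7, 37.2 and 29.9 in WT libraries, and its fold of 4.17 and log2 change of 2.08 ± 0.40 (SE) (limma, adjusted p = 1.72e-06) were the largest among the snRNP, PRP, SR and hnRNP genes. WT-1 was the lowest library for all 3 genes, and the lowest JHT library of each stayed above the highest WT library by a factor of 1.51 for Snrpb, 1.95 for Sf3a3 and 2.04 for Snrnp40. Prpf38a was the listed gene among 13 of the PRP family, named after yeast mutants in pre-mRNA processing, and its yeast counterpart is needed to activate the spliceosome. It had 76.1, 85.6 and 106 in JHT libraries, against 15.1, 49.1 and 54.4 in WT libraries (2.26-fold), with WT-1 far below the other WT libraries.

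SR proteins were represented by 3 of 11 annotated genes, with folds between 2.72 and 3.10. Srsf2, also known as SC35 and a common marker of nuclear speckles, had 87.0, 99.2 and 164 in JHT libraries, against 35.2, 42.2 and 44.6 in WT libraries (2.87-fold). Srsf9 had 112, 103 and 85.9 in JHT libraries, against 22.1, 43.2 and 31.7 in WT libraries (3.10-fold), and here JHT-3 was the lowest of the JHT libraries. Srsf4 was far lower in level, at 5.11, 8.02 and 8.20 in JHT libraries, against 1.53, 4.33 and 1.98 in WT libraries, and its lowest JHT value exceeded its highest WT value by a factor of only 1.18, the narrowest gap among the 34 genes. Exons of other genes cover 43.0% of the exonic bases of Srsf4 (the transcript Gm12992, on the opposite strand) and 25.3% of those of Srsf2 (Mettl23 and Mfsd11, opposite strand). The library kit does not mark the strand, so reads of these genes and their partners cannot be told apart there.

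Of 25 annotated genes in the hnRNP and PTB group, in which Nono was also counted, 8 were listed. Hnrnpk had the highest mean of the 34 genes in the JHT libraries, although Snrpb was slightly higher in JHT-2 (452 against 448). In the WT libraries the mean of Snrpb was slightly above that of Hnrnpk (184.8 against 180.6). Hnrnpk, a protein that binds C-rich RNA and DNA, had 379, 448 and 739 in JHT libraries, against 98.6, 203 and 239.9 in WT libraries (2.89-fold, log2 change 1.56 ± 0.36 (SE) in limma, adjusted p = 6.06e-05), with JHT-3 far above the other libraries. Hnrnpa2b1, which binds nascent transcripts and takes part in RNA sorting, had 263, 276 and 306 in JHT libraries, against 107, 159.5 and 130.2 in WT libraries, and its fold of 2.13 was the smallest of this group. Hnrnpf, which binds runs of G, had 209.7, 235 and 272 in JHT libraries, against 54.1, 90.7 and 87.2 in WT libraries (3.09-fold). Both groups were tight for Hnrnpa2b1, whose coefficient of variation was 7.79% in JHT and 19.8% in WT libraries.

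Hnrnpab, of the A/B type, had the largest change of the hnRNP genes. Its values were 119.8, 158 and 197 in JHT libraries, against 32.2, 52.8 and 44.8 in WT libraries (3.66-fold, log2 change 1.85 ± 0.39 (SE) in limma, adjusted p = 1.47e-05), and the groups were separated by a factor of 2.27. Hnrnpc, which binds U-rich tracts, changed 2.42-fold and Hnrnpm, a regulator of alternative exons, 2.51-fold. Nono, a paraspeckle protein that pairs with Sfpq, had 68.9, 66.2 and 111 in JHT libraries, against 38.6, 41.2 and 31.5 in WT libraries (2.21-fold). Its call rested on JHT-3: without that library its log2 change was 0.86 with an adjusted p of 0.0639 in limma. Hnrnpr was the lowest of the group in level, at 9.56, 6.11 and 7.13 in JHT libraries, against 3.69, 4.33 and 2.18 in WT libraries (2.24-fold), and its call was lost without JHT-1 (log2 change 0.82, adjusted p = 0.0939 in limma) and without WT-3 (0.76, adjusted p = 0.0885). Exons on the opposite strand cover 29.1% of the exonic bases of Hnrnpab (Phykpl), and Hnrnpm shares 14.7% of its exonic bases with March2, which is itself a listed gene. Of the 150-base stretches of the Hnrnpf transcripts, 49.5% occur in transcripts of another gene as well. For Hnrnpk that share was 20.4%, mainly with Gm7964.

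RBM genes, named for an RNA-binding motif, gave 5 of 43. Rbm42 had 35.4, 47.9 and 40.4 in JHT libraries, against 9.09, 16.2 and 9.65 in WT libraries (3.54-fold). Rbmxl1, a retrogene relative of the X-linked gene Rbmx, had 24.9, 37.3 and 55.1 in JHT libraries, against 9.63, 8.02 and 19.3 in WT libraries (3.18-fold), and Rbmx itself, which encodes hnRNP G, changed 3.35-fold at a lower level (means of 15.7 ± 4.00 in JHT and 4.68 ± 1.13 in WT libraries, SD, n = 3 each). The longest annotated transcript of Rbmx shares no stretch of 150 bases with any other gene, Rbmxl1 included. Of the stretches of the longest transcripts, 47.0% of those of Rbmxl1 recur in Gm7324 and 91.9% of those of Rbm42 in Gm21982. Rbm34 had 17.3, 13.0 and 21.1 in JHT libraries, against 8.29, 9.16 and 6.72 in WT libraries (2.13-fold), and without JHT-3 its log2 change was 0.83 with an adjusted p of 0.0640 in limma. Rbm28, a nucleolar protein whose yeast counterpart acts in ribosome assembly, changed 2.90-fold.

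DEAD-box RNA helicases, which unwind short RNA duplexes and remodel RNA-protein complexes, gave 7 of 38 annotated genes, while none of 16 DEAH-box genes was listed. Ddx39, a helicase of mRNA export, had 158, 268 and 264 in JHT libraries, against 27.4, 121 and 73.0 in WT libraries (3.11-fold, log2 change 1.82 ± 0.39 (SE) in limma, adjusted p = 1.44e-05). Its close relative Ddx39b (UAP56), which acts in both splicing and export, changed 3.35-fold. Eif4a3, the RNA-clamping ATPase at the centre of the exon junction complex, had 134, 206 and 262 in JHT libraries, against 47.1, 81.7 and 77.2 in WT libraries (2.92-fold). WT-1 was the lowest library for each of the 3, and of these Ddx39 varied most among WT mice, with a coefficient of variation of 63.6%.

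Another 3 DEAD-box genes act mainly in the nucleolus, where their yeast counterparts process ribosomal RNA, and so are helicases outside splicing. Ddx47 had 55.5, 52.2 and 94.8 in JHT libraries, against 15.2, 33.3 and 19.5 in WT libraries (2.97-fold). Ddx49 had 11.3, 8.67 and 10.1 in JHT libraries, against 1.59, 4.79 and 1.13 in WT libraries (3.99-fold, log2 change 1.79 ± 0.40 (SE) in limma, adjusted p = 4.18e-05). Its fold was 7.36 without WT-2, the library closest to the JHT values, and 3.14 without WT-3. Ddx18 had 36.1, 31.3 and 43.0 in JHT libraries, against 19.7, 13.1 and 22.4 in WT libraries, the smallest fold of all 34 genes at 2.00. The Ddx18 call was lost without WT-2 (log2 change 0.77, adjusted p = 0.0745 in limma) and without JHT-3 (0.87, adjusted p = 0.0580). Ddx41, which acts in splicing and has also been described as a sensor of cytosolic DNA, had 15.6, 16.7 and 15.7 in JHT libraries, against 5.33, 9.65 and 8.65 in WT libraries (2.03-fold). Its JHT values were almost equal, with a coefficient of variation of 3.95%, the lowest of the 34 genes, and its call was lost without WT-1 (log2 change 0.75, adjusted p = 0.0611 in limma). Of the 150-base stretches of Ddx18, 26.5% recur in other genes, mainly Gm16433, and Homer3, on the opposite strand, covers 29.8% of the exonic bases of Ddx49. Opposite-strand exons also cover 17.4% of the exonic bases of Ddx39 (Adgre5) and 17.4% of those of Ddx41 (Gm46416).

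Genes of 3′ end formation and export gave 3 of 19 besides Eif4a3. Cpsf3 encodes the endonuclease that cuts the transcript before polyadenylation, and it had 26.6, 17.0 and 46.7 in JHT libraries, against 4.80, 5.24 and 6.10 in WT libraries (5.60-fold). Its log2 change of 2.18 ± 0.39 (SE) (limma, adjusted p = 5.32e-07) was the largest of the 34 genes with a pseudocount of 1, while with a pseudocount of 0.1 Cnot10 had the largest change (2.95, against 2.35 for Cpsf3). The gap between the groups, a factor of 2.80, was the widest. The WT values of Cpsf3 lay close together, while JHT-3 was well above JHT-2. The fold of Cpsf3 was 4.06 without JHT-3 and 6.81 without JHT-2. Thoc6, a subunit of the THO complex that links transcription to export, had 35.2, 60.7 and 31.5 in JHT libraries, against 9.05, 7.43 and 21.8 in WT libraries (3.33-fold). Its fold was 5.15 without WT-3 and 2.61 without JHT-2. Cstf1, a subunit of the cleavage stimulation factor, had 6.04, 6.51 and 5.49 in JHT libraries, against 0.942, 4.15 and 0.847 in WT libraries (3.04-fold). Without WT-2, the highest of its WT libraries, the fold was 6.72, and without WT-3 it was 2.36.

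RNA decay was represented by 4 of 27 genes, 2 of the exosome and 2 of the CCR4-NOT complex. Cnot8, one of the deadenylases of that complex, had 37.1, 44.6 and 68.8 in JHT libraries, against 14.9, 17.8 and 23.2 in WT libraries (2.69-fold). Cnot10, a non-catalytic subunit, had 5.11, 6.82 and 3.56 in JHT libraries, against 1.48, 0.0409 and 1.19 in WT libraries, and its fold of 5.70 was the highest of all 34 genes. That fold was 3.86 without WT-2 and 8.35 without WT-1. Without WT-2, other genes had larger folds, such as Ddx49 (7.36) and Cstf1 (6.72). The log2 change of Cnot10 depended on the pseudocount, at 1.75 with 1 and 2.95 with 0.1. The WT-2 value of Cnot10 stood for 3 reads, and Cnot10 was the only one of the 34 genes with fewer than 20 reads in any library. Exosc6 and Exosc2 encode proteins of the ring and the cap of the exosome. Exosc6 had 47.7, 31.5 and 38.2 in JHT libraries, against 6.64, 19.7 and 15.9 in WT libraries (2.78-fold), but its single annotated exon lies wholly within an exon of Aars on the same strand, so its reads cannot be told apart from those of Aars. Exosc2 had 20.9, 20.5 and 28.4 in JHT libraries, against 4.34, 13.3 and 4.31 in WT libraries (3.18-fold). Its fold was 5.38 without WT-2 and 2.64 without WT-3.

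Grouped by role, the median fold was 2.91 for core snRNP genes, 2.26 for the PRP gene, 2.87 for SR genes, 2.46 for hnRNP genes with Nono, 3.18 for RBM genes, 2.97 for DEAD-box genes, 3.33 for 3′ end and export genes and 2.98 for decay genes. The ranges of most of these groups overlapped, and no difference between roles was tested. Between 2-fold and 3-fold there were 19 genes, between 3-fold and 4-fold there were 12, and above 4-fold there were 3 (Cnot10, Cpsf3 and Snrnp40). Of the 34 genes, 19 changed by more than the median of all listed genes. Their level over all libraries had a median of 37.4, against 20.2 for the listed genes, and 23 of the 34 lay above the listed median.

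**Figure D2:**
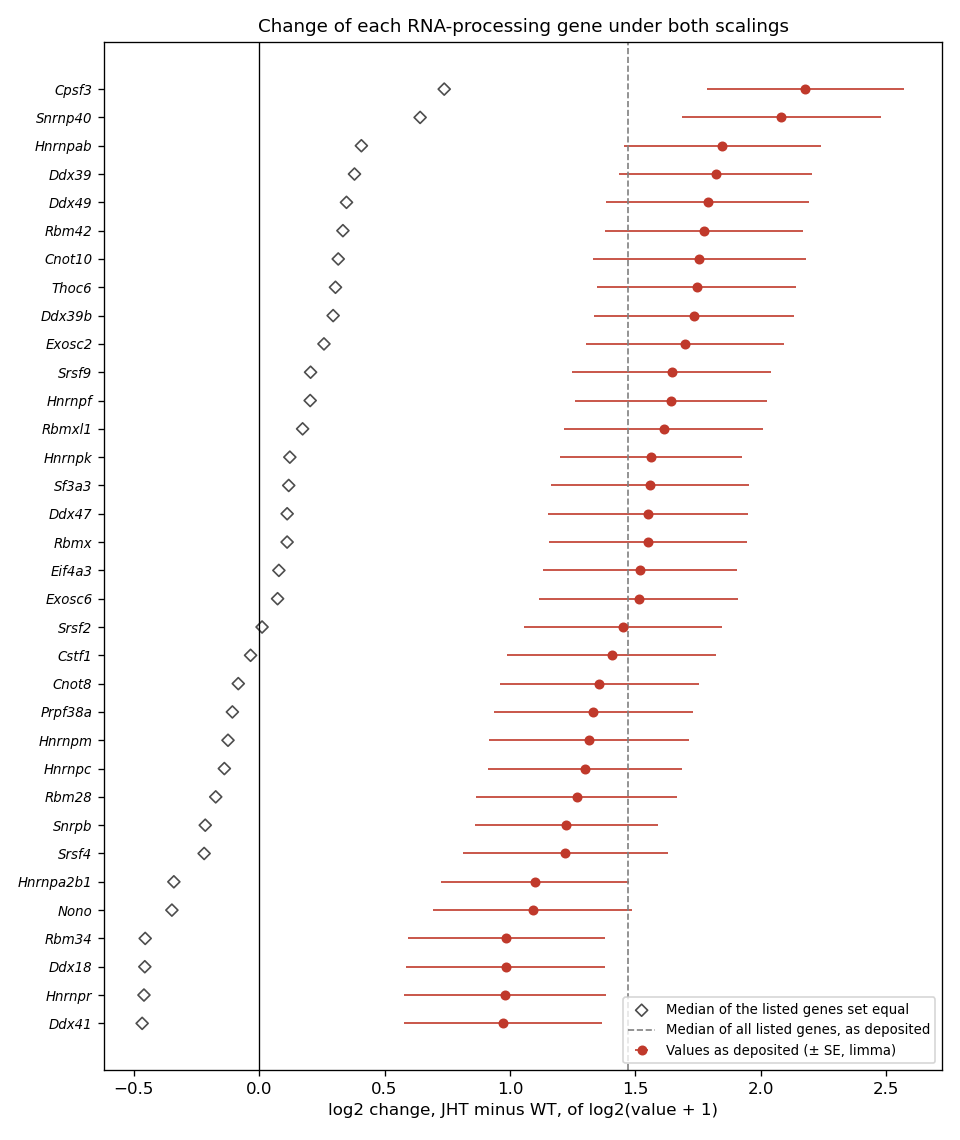
Change of each of the 34 genes in JHT against WT libraries on the log2(value + 1) scale (horizontal axis), as deposited with the standard error of limma (red points) and after all libraries had been brought to the same median over the listed genes (open diamonds). The red points run between 0.97 and 2.18 around the listed median of 1.47 (dashed line), whereas the diamonds lie on both sides of 0.

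The 34 genes added up to 2833, 3329 and 4147 in JHT libraries, against 849, 1480 and 1438 in WT libraries. The sums averaged 3436 ± 663 in JHT and 1255 ± 353 in WT libraries (SD, n = 3 each), and they did not overlap. As a share of the sum of all listed genes other than Ccl5, a chemokine transcript that makes up a large part of that sum, the 34 genes held 3.03%, 3.19% and 3.73% in JHT libraries, against 2.57%, 2.91% and 2.96% in WT libraries. These shares averaged 3.32 ± 0.371% in JHT and 2.82 ± 0.213% in WT libraries (SD, n = 3 each), with a narrow gap between JHT-1 and WT-3. With Ccl5 included the shares were 2.34%, 2.59% and 3.19% in JHT, against 0.802%, 1.46% and 1.26% in WT libraries. With 3 mice against 3, an exact two-sided permutation test cannot give a p below 0.1, so these sums were left untested.

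**Figure D3:**
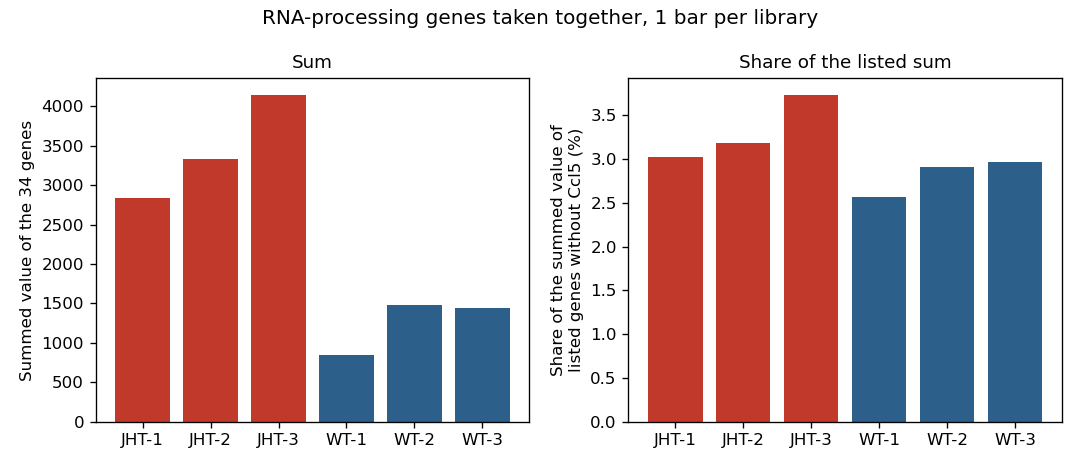
Summed deposited value of the 34 genes (left) and their share of the summed value of the listed genes without Ccl5, in percent (right), with 1 bar per library, JHT in red and WT in blue. The sums in the JHT libraries lie between 2833 and 4147 and in the WT libraries between 849 and 1480, and the shares differ far less, at 3.03% to 3.73% in JHT and 2.57% to 2.96% in WT libraries.

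Most listed genes moved with these genes, so each change was also set against the change of the table as a whole. Bringing all libraries to the same median over the listed genes took 1.44 off the median log2 change. After that, 20 of the 34 genes were higher and 14 lower in JHT libraries, against 53.3% of the listed genes higher. None of the 34 passed limma's test on this scale (adjusted p between 0.285 and 0.987, with 2 genes at an unadjusted p under 0.05). Of the 1018 listed genes, 56 were called in either direction on this scale, and 2.06% were called higher. Quantile normalization over the listed genes gave 19 higher and 15 lower and likewise no call in limma (adjusted p between 0.200 and 0.989, 3 genes at an unadjusted p under 0.05). Here 53.0% of the listed genes were higher, 60 listed genes were called in either direction and 2.55% were called higher. Cpsf3 stayed highest of the 34 under both scalings (log2 change 0.74 and 0.75), followed by Snrnp40 (0.64 and 0.71) and Hnrnpab (0.41 and 0.48). At the low end, Ddx41, Hnrnpr, Ddx18 and Rbm34 had negative changes under both, between -0.47 and -0.45 with equal medians. Which of these scalings stands closer to RNA per cell cannot be told from a table of selected genes.

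The makeup of the group itself does not depend on the scaling of a library. As a share of the sum of the 34 genes, 4 genes were higher in JHT libraries without overlap, 1 was lower and 29 overlapped. Snrnp40 held 2.67%, 3.51% and 3.47% of the sum in JHT libraries, against 1.61%, 2.51% and 2.08% in WT libraries. Hnrnpab held 4.58 ± 0.301% in JHT and 3.49 ± 0.346% in WT libraries (SD, n = 3 each), and Hnrnpf held 7.01 ± 0.432% in JHT and 6.19 ± 0.164% in WT libraries. Rbmx, the fourth of these, held 0.454 ± 0.0365% in JHT and 0.377 ± 0.0222% in WT libraries. Ddx41 went the other way, with 0.551%, 0.503% and 0.379% in JHT libraries, against 0.628%, 0.653% and 0.602% in WT libraries. Scaled in the same manner, 13.0% of the 983 higher listed genes were above and 5.29% below without overlap, so 4 and 1 of 34 are near the background of the table. Hnrnpk held the largest share on average in JHT libraries, at 14.9%, against 14.0% in WT libraries, and Snrpb held 12.2% in JHT and 14.5% in WT libraries, the largest mean share there.

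**Figure D4:**
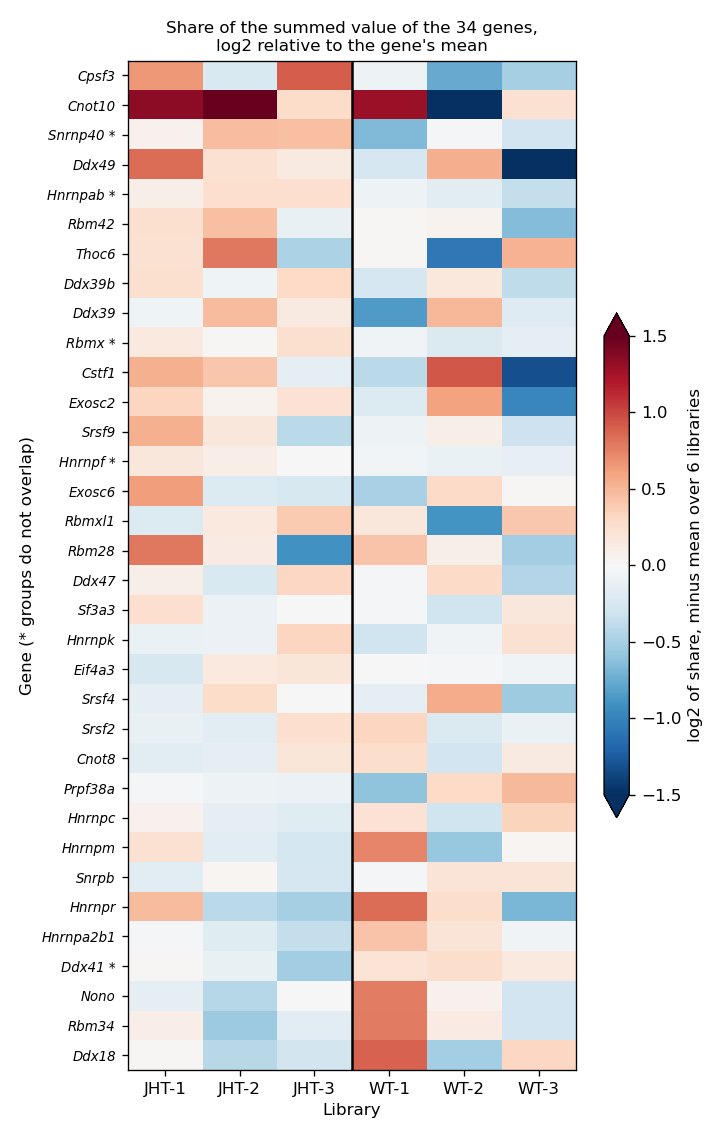
Share of each gene in the summed value of the 34 genes, as log2 of the share minus its mean over the 6 libraries, with JHT libraries left of the black line and WT libraries right of it and genes ordered by the ratio of their mean shares. Asterisks mark the 5 genes whose groups do not overlap, the colours of Cnot10 and Ddx49 reach the end of the scale in single libraries, and most other rows show no clean break between the groups.

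Ratios between the 34 genes mostly overlapped between the groups. Of 561 pairs, 50 (8.91%) had ratios that did not overlap between the groups, against 16.6% of 482653 pairs of higher listed genes. With 3 libraries per group, 10% of ratios would not overlap if the groups did not differ, so 8.91% does not exceed that share. Cpsf3 and Ddx41 took part in 10 of the 50 non-overlapping pairs each, Hnrnpa2b1 in 9 and Snrnp40 in 7. The next 2 ratios were picked from those 50 pairs. The ratio of Hnrnpa2b1 to Hnrnpab was 2.20, 1.75 and 1.55 in JHT libraries, against 3.33, 3.02 and 2.91 in WT libraries. The ratio of Snrnp40 to Snrpb averaged 0.265 ± 0.0447 in JHT and 0.142 ± 0.0221 in WT libraries (SD, n = 3 each), without overlap. The near relatives Ddx39 and Ddx39b had overlapping ratios, at 3.81 ± 1.26 in JHT and 3.70 ± 1.15 in WT libraries, and so did Rbmx and Rbmxl1, at 0.420 ± 0.0871 in JHT and 0.429 ± 0.197 in WT libraries. These ratios were not tested.

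Mice of a group differed from each other in many of the 34 genes at once. The median coefficient of variation over the genes was 24.1% in JHT libraries and 32.6% in WT libraries, close to the 23.2% and 36.8% of all listed genes in JHT and WT libraries. It was highest for Cpsf3 in JHT libraries, at 50.3%, and for Cstf1 in WT libraries, at 95.0%. JHT-3 lay above the mean of the other JHT libraries by a median of 0.33 on the log2 scale, and WT-1 lay below the mean of the other WT libraries, with a median of -0.70. These shifts were not particular to the 34 genes. All listed genes other than Ccl5 summed to 33007, 50784 and 48547 in WT libraries. In JHT libraries that sum was 93595, 104423 and 111028. The median fold over the 34 genes was 2.54 when WT-1 was left out and 2.60 when JHT-3 was left out.

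Genes of the same processes whose names fall outside the 34 were taken from lists of 160 genes in all, of which 21 were listed. All 21 were higher in JHT libraries and passed limma's test, with a median fold of 2.43 and a median log2 change of 1.36, and like the 34 they were in the table because they differed. Under either rescaling 10 of the 21 were higher and 11 lower. Spliceosome genes gave 8 of 46 (Ppil1, Smu1, Ppie, Plrg1, Puf60, Isy1, Slu7 and Ctnnbl1), among them Ppil1, a cyclophilin of the spliceosome, with 127, 158 and 133 in JHT libraries, against 25.9, 52.6 and 54.8 in WT libraries (3.14-fold). Regulators of splicing gave 6 of 39 (Tra2b, Ilf2, Clk3, Ewsr1, Ncl and Raly), and Tra2b, an SR-like protein, had 163, 122 and 165 in JHT libraries, against 54.6, 73.7 and 82.5 in WT libraries (2.14-fold). Gene lists for the exon junction, export and surveillance gave 4 of 22 (Alyref, Rnps1, Chtop and Gle1), led by the export adaptor Alyref with 313, 358 and 285 in JHT libraries, against 72.7, 96.2 and 141 in WT libraries (3.08-fold). Assembly of snRNPs gave 2 of 15, the SMN-complex gene Gemin6 (2.59-fold) and Prmt5 (3.23-fold), which methylates Sm proteins including SmB. From 3′ end processing 1 of 13 was listed, Nudt21 (2.09-fold), a subunit of the cleavage factor that sets poly(A) site choice. None of the 25 genes on the list for further RNA decay was listed, so nothing can be said of their levels. That list is not complete, as the decapping enzymes Dcps and Dxo are listed genes outside it.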

How the data were processed

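Total RNA of sorted M45 tetramer+ CD8+ T cells from 6 mice was amplified with SMART-Seq v4, made into Nextera XT libraries, which do not mark the strand, and sequenced as paired-end reads on a NovaSeq instrument. The authors trimmed adaptors and mapped the reads to GRCm38 in CLC Genomics Workbench with default settings. Their deposited table holds 1 expression signal per gene and library, scaled for gene length and library, but RPKM or TPM is not named in the sources read. The table also holds the authors' own difference, fold change, log2 fold change, p-value, FDR and -log10 p-value, which were not used. It lists only genes selected on their difference between these libraries, so the p-values given here are conditional on that selection and too small as evidence for a gene.

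Values were compared as log2(value + 1) in limma (version 3.58.1, R 4.3.3) with a trend in the variance, keeping genes with a value of 1 or more in 3 or more libraries, and p-values were adjusted by Benjamini-Hochberg over all 1018 listed genes at 0.05. The prior outweighed the 4 residual degrees of freedom entirely, so the standard errors come from the trend over the listed genes. Log2 changes on this scale understate the change of low genes. Folds are ratios of group means. Samples were grouped by their titles, and each library is a separate mouse. Between 2 libraries the values of a gene stand in ratios of whole numbers, which gave back whole reads for 1018 of 1018 genes within a tolerance of 0.001. Listed genes held 4040416, 5742545 and 4894010 such reads in the JHT libraries, against 1909193, 2655404 and 2888084 in the WT libraries, in replicate order. These are not library totals, and total depth is unknown. Exon overlap and shared stretches of 150 bases, on either strand, were computed from GENCODE M21, and promoters came from RefSeq. The stretches were those of the longest annotated transcript of each of the 34 genes. The procedure was tested on simulated data with independent noise for each gene and changes in both directions. The table itself was selected on the outcome, so that test does not bear on the p-values given here. The 34 genes, their roles and the lists were chosen with earlier results of these data known. Values in each library are given for the 3 highest genes of each role, the 5 largest and the smallest log2 changes, genes under 20 reads in any library and genes whose call depended on 1 library. The alternatives were another pseudocount, other filters, 2 rescalings, no variance trend, a replicate block and leaving out each library. A filter of at least 20 recovered reads in each library was added after seeing the data.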

Additional observations from a re-analysis of the deposited data

How the results depend on the processing

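All 34 RNA-processing genes, all 21 other genes of RNA processing and all 1018 listed genes kept their direction and their call with a pseudocount of 0.1 (median log2 change of the 34 genes 1.58), without a filter and without a variance trend. A filter of at least 5 left 955 listed genes and 33 of the 34 (Cnot10 dropped), and at least 20 recovered reads in each library, chosen after seeing the data, left 966 and 33. The replicate block, for which the replicate numbers were taken as pairs, gave 1018, 34 and 21 calls and a median log2 change of 1.53, and changed no call. The correlations of deviations between equal numbers were 0.168, 0.0305 and 0.107, not all over 0.1, so the numbers were not treated as pairs. Each library correlated best with its own number except WT-2, whose values with JHT-3 (0.0306) and JHT-2 (0.0305) were nearly equal. Leaving out 1 library gave 956 to 1010 calls among the listed genes, 31 to 34 among the 34 genes and 19 to 21 among the other genes, with a median log2 change of 1.29 to 1.61. The number of shares without overlap, 5 in all libraries, was 7 to 13, where fewer values per group overlap less by construction.

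Setting the listed medians equal left 56 calls among the listed genes and quantile normalization left 60, with 0 calls among the 34 genes and 0 among the 21 others under either, and the median log2 change of the 34 genes was 0.10 with equal medians and 0.13 after quantile normalization. With equal medians the log2 change turned negative for Ddx41 (-0.47), Hnrnpr (-0.46), Ddx18 (-0.46), Rbm34 (-0.45), Nono (-0.35), Hnrnpa2b1 (-0.34), Srsf4 (-0.22), Snrpb (-0.21), Rbm28 (-0.17), Hnrnpc (-0.14), Hnrnpm (-0.12), Prpf38a (-0.11), Cnot8 (-0.083) and Cstf1 (-0.034), and for 11 of the 21 others, which were Gle1 (-0.51), Ncl (-0.46), Isy1 (-0.44), Ewsr1 (-0.40), Chtop (-0.36), Tra2b (-0.35), Nudt21 (-0.35), Clk3 (-0.30), Plrg1 (-0.22), Slu7 (-0.13) and Ppie (-0.075). After quantile normalization it was negative for Hnrnpr (-0.51), Ddx18 (-0.46), Rbm34 (-0.45), Ddx41 (-0.45), Srsf4 (-0.31), Nono (-0.27), Hnrnpa2b1 (-0.22), Cstf1 (-0.19), Rbm28 (-0.15), Snrpb (-0.11), Cnot8 (-0.093), Hnrnpm (-0.086), Cnot10 (-0.068), Prpf38a (-0.038) and Hnrnpc (-0.015), and again for 11 of the 21 others, Gle1 (-0.51), Ncl (-0.47), Isy1 (-0.45), Ewsr1 (-0.40), Chtop (-0.36), Clk3 (-0.29), Tra2b (-0.26), Nudt21 (-0.23), Plrg1 (-0.17), Slu7 (-0.10) and Ppie (-0.0070). The cause was not tested. Both rescalings assume that the listed genes as a whole do not differ, in a table selected for genes that do. The values are scaled to each library, so they do not show a change in the total RNA of a cell. With 3 mice per group and no genes outside the selection, how far the rise shared by most listed genes reaches beyond them cannot be told.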
